A study of Homo sapiens with 12 samples.

Results

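BCL2-family proteins decide whether the outer membrane of the mitochondrion stays intact. In SUM149PT breast cancer cells, 8 genes of this family were followed through inhibition of AKT and EZH2: the guardians BCL2, BCL2L1, BCL2L2, MCL1 and BCL2A1, and the pore-forming members BAX, BAK1 and BOK. They were chosen by name from the 23228 genes counted in each library. Of the 8, 7 passed the filter on low counts and were tested among 14874 genes, and BCL2A1 did not pass.

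SUM149PT is a long-established human breast cancer line, derived from an inflammatory tumour and negative for hormone receptors. Polyadenylated RNA was sequenced from 4 groups of 3 libraries lettered A, B and C. The combination group received 5 µM tazemetostat and 5 µM ipatasertib, the ipatasertib group 5 µM ipatasertib alone, the tazemetostat group 5 µM tazemetostat alone, and the DMSO group neither drug. Ipatasertib inhibits the AKT kinases and tazemetostat inhibits EZH2, the subunit of a Polycomb repressive complex that methylates histone H3 at silenced genes. Tazemetostat or DMSO was present from day -5, ipatasertib was added on day 0 in medium with 2% serum, and RNA was taken 24 h later in every group, so tazemetostat had acted for longer. Per the labels the libraries come from a single cell line, and separate cultures are not stated, so the p-values reflect variation among these libraries that may be technical.

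Guardians bind and hold back the pore-forming proteins and the BH3-only proteins that trigger them. When BAX and BAK1 are released they oligomerise in the outer membrane, cytochrome c escapes, and APAF1 and caspase-9 are assembled into the apoptosome. BOK is a related protein that can permeabilise membranes without the usual control by guardians. Guardian proteins, MCL1 in particular, turn over quickly and are regulated after transcription, so the RNA levels given here are not protein levels.

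The promoters of the 2 members with the largest changes are shown because BCL2 rose with tazemetostat and BAK1 fell with ipatasertib. Sequences are from RefSeq (GRCh38.p14), which had promoters for 6 of the 8 members in the table used. Each runs from 250 bases before to 50 bases after the gene start, 5′ to 3′ on the strand of the gene, with CpG dinucleotides in capitals. The BCL2 promoter lies on the minus strand at chr18:63319720-63320019 and the BAK1 promoter on the minus strand at chr6:33580227-33580526.
BCL2: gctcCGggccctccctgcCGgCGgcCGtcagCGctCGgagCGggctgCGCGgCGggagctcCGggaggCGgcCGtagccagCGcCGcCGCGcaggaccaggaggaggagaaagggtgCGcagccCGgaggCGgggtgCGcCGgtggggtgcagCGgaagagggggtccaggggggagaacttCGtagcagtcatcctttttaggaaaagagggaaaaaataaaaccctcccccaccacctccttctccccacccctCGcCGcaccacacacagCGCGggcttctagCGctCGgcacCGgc
BAK1: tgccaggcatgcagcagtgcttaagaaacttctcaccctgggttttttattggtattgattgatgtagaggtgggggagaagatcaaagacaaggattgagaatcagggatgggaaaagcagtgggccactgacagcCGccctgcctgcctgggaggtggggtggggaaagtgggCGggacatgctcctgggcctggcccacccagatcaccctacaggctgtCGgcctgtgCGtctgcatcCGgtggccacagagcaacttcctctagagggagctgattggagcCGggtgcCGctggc
The BCL2 promoter held 31 CpG dinucleotides, more than 79.4% of the 35116 promoters of the table, whose median was 14. In the BAK1 promoter there were 7, and 36.8% of promoters had fewer. BAX had 38 and BOK 22, the 2 BCL2L1 promoters had 20 and 16, and BCL2A1 had 2. The letters TGTTTAC, a core of the motif of FOXO transcription factors, were searched on both strands and stood in none of these 7 windows and in 3.42% of all promoters. Factor binding and histone methylation at these promoters were not analysed here.

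SUM149PT identity was checked by epithelial markers, of which KRT5, KRT14, KRT17 and EGFR are markers of basal-like cells. All 8 markers, EPCAM, CDH1, KRT5, KRT14, KRT17, KRT8, KRT18 and EGFR, were detected in every group, the progesterone receptor gene PGR had between 0 and 5 counts per library, and the oestrogen receptor gene ESR1 averaged between 3.41 and 5.58 CPM (counts scaled to a common library size by TMM). KRT5 itself averaged 54.6 ± 4.15 CPM with the combination, 146 ± 6.11 with ipatasertib, 480 ± 34.6 with tazemetostat and 633 ± 19.8 with DMSO (SD, n = 3 each). KRT14 averaged 2.60 ± 0.200, 3.58 ± 0.296, 18.7 ± 1.51 and 22.8 ± 0.964 CPM in the same groups. EGFR stood higher with the combination and with ipatasertib than with DMSO. It averaged 279.5 ± 22.06, 214.8 ± 6.818, 175.6 ± 6.962 and 192.9 ± 2.565 CPM in the same order. EPCAM averaged 343.1 ± 52.14, 337.4 ± 10.36, 311.1 ± 20.42 and 322.8 ± 16.05 CPM. Of the 8 markers, 1 was called higher and 6 lower with the combination against DMSO, where 36.5% and 34.5% of all genes were. Among markers of other cell types, the sum of 6 fibroblast genes was 80.2 to 86.4 CPM in combination, 343 to 381 in ipatasertib, 112 to 118 in tazemetostat and 549 to 576 in DMSO libraries, with no gene of the list at 0. COL1A1 carried most of this sum. With ipatasertib against DMSO, DCN, LUM and PDGFRB were called higher, at 0.41, 0.31 and 1.05 on the log2 scale. COL1A1, COL1A2 and COL3A1 were called lower, at -1.06, -1.10 and -1.21. PDGFRB had 8 to 20 counts per library with ipatasertib, where it was highest, and 4 to 9 with DMSO. COL1A2 had 2 to 13 with ipatasertib and 11 to 32 with DMSO, where it was highest. At such counts, passing the filter can depend on the highest group, so the calls of these 2 genes are descriptions. The sum of 6 leukocyte genes was 219 to 265, 286 to 299, 277 to 316 and 364 to 418 CPM in the same order of groups, most of it from CD68, with MS4A1 at 0 throughout. PTPRC, the general leukocyte marker, went the other way, at 1.74 ± 0.398 CPM with the combination, 0.650 ± 0.0728 with ipatasertib, 0.336 ± 0.0571 with tazemetostat and 0.319 ± 0.0796 with DMSO, and was called higher with the combination and with ipatasertib against DMSO. The 3 endothelial genes summed to 4.76 to 6.62 CPM in combination, 3.09 to 3.86 in ipatasertib, 1.42 to 1.91 in tazemetostat and 0.902 to 1.44 in DMSO libraries. These marker sums moved with treatment, and their part in the results below was not tested.

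Total gene counts were between 22355242 and 49970540 per library. A total of 2 libraries stood apart from the others of their own groups, tazemetostat A and combination B. The chi-square per degree of freedom between libraries of a group was 17.3 and 19.1 for pairs with tazemetostat A, 14.4 and 24.9 for pairs with combination B, and 2.64 to 6.68 for the other pairs. Both deviations followed the GC content of genes. In the lowest GC tertile, the median gene of combination B stood 0.18 higher on the log2 scale than in combination A and C, and in the highest tertile it stood 0.25 lower. For tazemetostat A the medians were 0.16 lower in the lowest tertile and 0.17 higher in the highest. The pore-forming genes are rich in GC, with 58.9% in the BAX transcript, 58.8% in BAK1 and 66.0% in BOK, against a median of 49.1% for genes with a value. In combination B they stood 0.47, 0.51 and 0.50 lower than in the other 2 libraries, and in tazemetostat A 0.28, 0.28 and 0.30 higher. BCL2, with 45.6% GC, went the other way, 0.17 higher in combination B and 0.21 lower in tazemetostat A. Results that rest on these libraries are therefore given with and without them, and with a GC trend fitted to each library. Leaving both out leaves 2 libraries in the tazemetostat group and 2 in the combination group. As the libraries left out were picked for standing apart, the p-values of that fit are likely too small.

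Levels of different genes were compared as CPM per kilobase of exon, using the union of the annotated exons of each gene in GENCODE v29 (GRCh38), which is not the annotation the authors counted with. On this scale the order in DMSO was MCL1 at 65.9 ± 0.592, BAX at 48.4 ± 1.77, BCL2L1 at 33.3 ± 0.826, BAK1 at 23.4 ± 1.45, BCL2L2 at 14.6 ± 0.345, BOK at 14.4 ± 1.37, BCL2 at 0.205 ± 0.0529 and BCL2A1 at 0.0963 ± 0.0206 (mean CPM per kb ± SD, n = 3). BCL2L2 and BOK did not differ beyond their spread. MCL1, BAX and BCL2L1 led in this order in all 4 groups. With the combination, BAK1 at 13.8 ± 2.79, BOK at 13.5 ± 2.71 and BCL2L2 at 12.1 ± 0.438 CPM per kb lay within each other's spread. On the same scale, MCL1 and BCL2L1 stood far above BCL2 in every group.

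**Figure D1:**
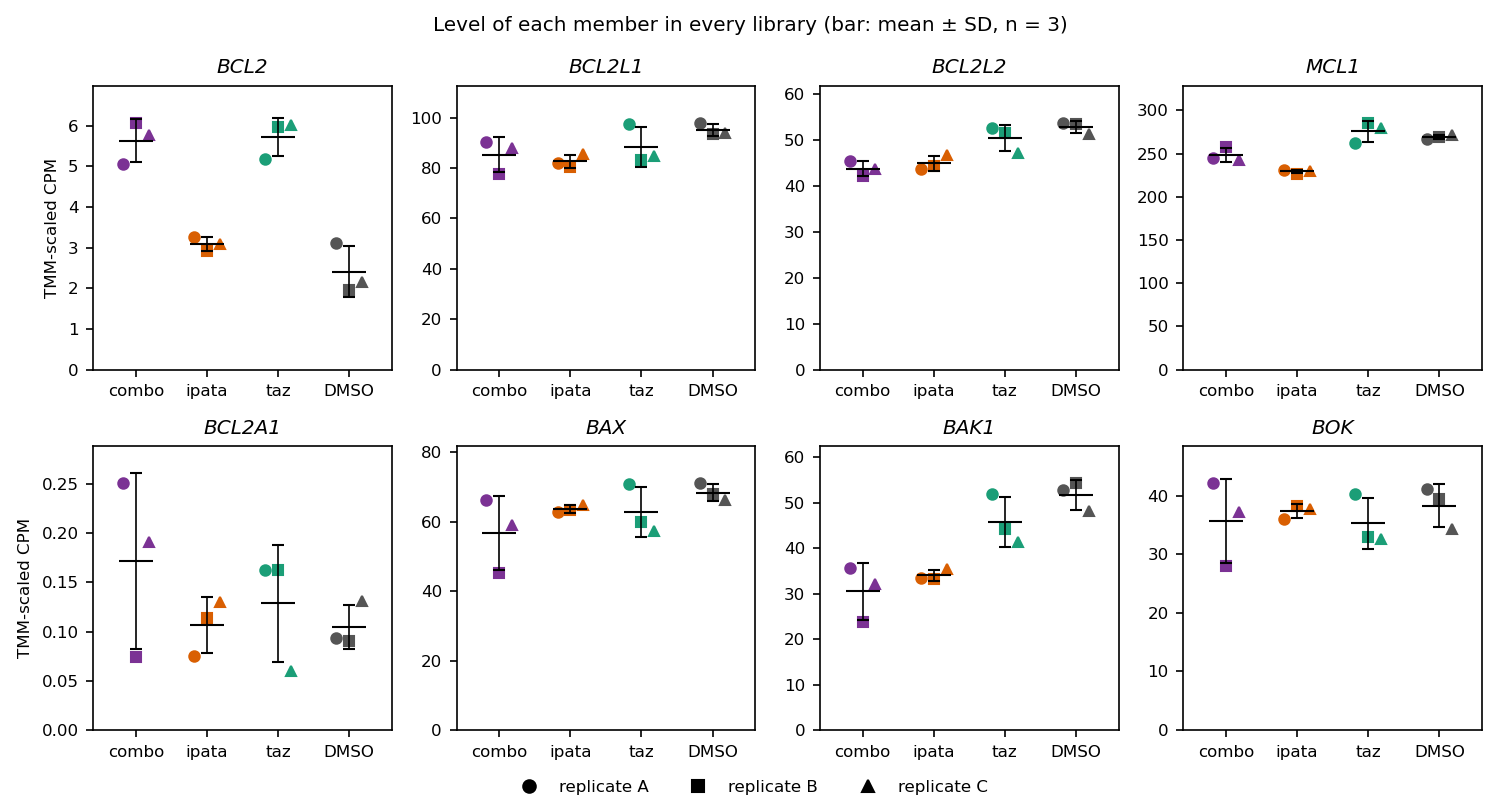
TMM-scaled CPM of the 8 members in every library, with groups from left to right combination (combo), ipatasertib (ipata), tazemetostat (taz) and DMSO; points are libraries, the long bar is the mean and the whiskers the SD (n = 3). BCL2 stood between 5.05 and 6.06 CPM in combination libraries and between 1.96 and 3.12 CPM in DMSO libraries, and BAK1 between 23.7 and 35.7 against 48.1 and 54.3 CPM.

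Among the guardians, BCL2 rose with tazemetostat and with the combination, and it was the only tested member that rose in any comparison with DMSO. BCL2 is the founding member of the family and the target of venetoclax. Its level was 5.05, 6.06 and 5.77 CPM in combination libraries A, B and C, 3.26, 2.93 and 3.09 CPM with ipatasertib, 5.17, 5.95 and 6.02 CPM with tazemetostat, and 3.12, 1.96 and 2.16 CPM with DMSO. Every library with tazemetostat, alone or combined, lay above every library without it. The change was 1.20 on the log2 scale with the combination against DMSO (SE 0.15, adjusted p = 7.07e-07), 2.30-fold, and 1.22 with tazemetostat against DMSO (SE 0.15, adjusted p = 1.42e-06), 2.33-fold. P-values are from edgeR's quasi-likelihood test, adjusted by Benjamini-Hochberg over the 14874 genes, and a gene is called where the adjusted p is under 0.05. Ipatasertib libraries gave 0.34 against DMSO (SE 0.16, adjusted p = 0.0882), with overlap at DMSO A, and was not called. Of 20 alternatives, 17 left this change not called and 3 called BCL2 higher, with values from 0.24 to 0.62 and adjusted p up to 0.271. Without DMSO A the change was 0.62 (adjusted p = 0.00421), but DMSO A had the most BCL2 of the DMSO libraries, so leaving it out favours a rise. With total counts, which shifted the median gene by 0.12 in this comparison, it was 0.46 (adjusted p = 0.0257). With only these groups in the fit it was 0.36 (adjusted p = 0.0487). The combination exceeded ipatasertib by 0.86 (SE 0.15, adjusted p = 0.000144), while its difference from tazemetostat was -0.02 with a 95% interval from -0.30 to 0.26. In bulk RNA, a change in the number of cells with a transcript and a change in RNA per cell cannot be told apart. Counts behind these values were low for a guardian: 516 in the combination, 278 with ipatasertib, 778 with tazemetostat and 264 with DMSO, summed over 3 libraries.

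MCL1, the guardian that sequesters BAK1 and several BH3-only proteins, fell with ipatasertib. Its level was 245, 258 and 243 CPM with the combination, 231, 227 and 230 CPM with ipatasertib, 262, 285 and 280 CPM with tazemetostat, and 267, 269 and 272 CPM with DMSO. The 3 ipatasertib libraries lay below all others, and the combination libraries lay between them and DMSO. Against DMSO, ipatasertib gave -0.23 (SE 0.05, adjusted p = 0.000942), 1.17-fold lower. For the combination the change was -0.12 (SE 0.05, adjusted p = 0.0533), not called, although the 2 groups did not overlap, and it was called lower under 8 of 20 alternatives. MCL1 was called lower with the combination than with tazemetostat, at -0.15 (adjusted p = 0.0174), a call lost under 9 of 20 alternatives. When tazemetostat A and combination B were left out, the change with the combination against DMSO was -0.14 (adjusted p = 0.00312), and with the GC trend it was -0.17 (adjusted p = 0.000108), so both called it lower.

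BCL2L1, which encodes BCL-XL, and BCL2L2, which encodes BCL-w, fell with ipatasertib by similar amounts. BCL2L2 stood at 45.3, 42.2 and 43.6 CPM with the combination, 43.6, 44.2 and 46.7 CPM with ipatasertib, 52.6, 51.4 and 47.1 CPM with tazemetostat, and 53.6, 53.3 and 51.3 CPM with DMSO. All 6 libraries with ipatasertib lay below all 6 without it. Its change against DMSO was -0.27 with the combination (SE 0.06, adjusted p = 0.000729) and -0.24 with ipatasertib (SE 0.06, adjusted p = 0.00356). Against tazemetostat the combination gave -0.20 (adjusted p = 0.00842), a call lost under 4 of 20 alternatives. BCL2L1 stood at 90.4, 77.5 and 88.0 CPM with the combination, 81.9, 80.6 and 85.6 CPM with ipatasertib, 97.6, 83.2 and 84.8 CPM with tazemetostat, and 97.9, 93.6 and 94.1 CPM with DMSO. The combination and ipatasertib libraries all lay below the DMSO libraries. Ipatasertib gave -0.20 against DMSO (SE 0.07, adjusted p = 0.0195), lost under 7 of 20 alternatives, and the combination gave -0.16 (adjusted p = 0.0517), not called but called lower under 9 of 20 alternatives. Without combination B this change was -0.09 (adjusted p = 0.200), and with total counts it was -0.02. BCL2L1 overlaps an antisense gene over 42.8% of its exon bases in GENCODE v29, and BCL2L2 shares 16.3% with a read-through gene that is listed at 0 in all libraries. The strand setting of the counting is not given in the sources used here, and gene counts cannot separate the long and short splice forms of BCL2L1 or MCL1, which have opposite effects on apoptosis.

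BCL2A1, a guardian best known from blood cells and as a target of NF-kappaB, was at the limit of detection. Libraries held between 2 and 7 counts, with 16 in the combination (95% exact Poisson interval 9.15 to 26.0), 9 with ipatasertib (4.12 to 17.1), 17 with tazemetostat (9.90 to 27.2) and 11 with DMSO (5.49 to 19.7), summed over 3 libraries. These intervals cover counting error only. The limit that a count of 0 allows, 3 counts, was between 0.0600 and 0.134 CPM. The Poisson intervals of the 4 sums overlapped, and BCL2A1 was not tested in the filtered fit.

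BAK1 showed the largest fall among the 8 genes. BAK1 sits in the outer mitochondrial membrane of healthy cells, where MCL1 and BCL-XL hold it. Its level was 35.7, 23.7 and 32.0 CPM with the combination, 33.5, 33.2 and 35.5 CPM with ipatasertib, 51.8, 44.3 and 41.3 CPM with tazemetostat, and 52.8, 54.3 and 48.1 CPM with DMSO. The 6 libraries with ipatasertib lay below the 6 without it, with combination B lowest. Against DMSO, the combination gave -0.76 (SE 0.11, adjusted p = 3.7e-06), 1.70-fold lower, and ipatasertib gave -0.61 (SE 0.11, adjusted p = 0.000101), 1.52-fold lower. Tazemetostat alone gave -0.18 against DMSO (95% interval -0.40 to 0.04, adjusted p = 0.180), not called, though called under 3 of 20 alternatives, each of which left out combination B, tazemetostat A or both. The combination differed from tazemetostat by -0.58 (SE 0.11, adjusted p = 0.000112), and its difference from ipatasertib was -0.16 (95% interval -0.39 to 0.08). That difference was -0.29 without combination A, called at an adjusted p of 0.0373, and -0.0081 without combination B. Without combination B the change against DMSO was -0.61, and with the GC trend -0.70, so the fall stayed called without the library that stands apart. The calls of BAK1 with the combination and with ipatasertib against DMSO, and with the combination against tazemetostat, held under each of the 20 alternatives. Of its exon bases, 4.11% overlap an antisense gene, and 2 BAK1 pseudogenes are annotated.

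BAX, which moves from the cytosol to mitochondria when activated, was called lower in a single comparison across all 12 libraries, the combination against DMSO. Its level was 66.1, 45.1 and 59.1 CPM with the combination, 62.8, 63.2 and 64.8 CPM with ipatasertib, 71.0, 59.8 and 57.4 CPM with tazemetostat, and 71.0, 67.9 and 66.1 CPM with DMSO. Combination A reached the lowest DMSO library, so these groups overlapped. The combination gave -0.27 against DMSO (SE 0.10, adjusted p = 0.0235). Without combination B it was -0.13 (adjusted p = 0.124), without that library and tazemetostat A -0.13 (adjusted p = 0.0285), and with the GC trend -0.20 (adjusted p = 0.00217). The call also ended without DMSO A, B or C, with changes of -0.22, -0.25 and -0.27. Against tazemetostat the combination gave -0.14, not called, but -0.18 with the GC trend (adjusted p = 0.00600) and -0.23 without combination A (adjusted p = 0.0442). This change was -0.0038 without combination B and 0.093 without that library and tazemetostat A, neither called. Against ipatasertib the combination gave -0.16, not called, but -0.30 without combination A (adjusted p = 0.0185) and -0.14 with the GC trend (adjusted p = 0.0420). That difference was -0.024 without combination B and -0.025 without combination B and tazemetostat A, neither called.

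BOK was called in no comparison across all 12 libraries. Its level was 42.1, 27.9 and 37.2 CPM with the combination, 36.0, 38.3 and 37.8 CPM with ipatasertib, 40.3, 32.9 and 32.7 CPM with tazemetostat, and 41.2, 39.5 and 34.2 CPM with DMSO. All groups overlapped. Against DMSO the 95% intervals ran from -0.34 to 0.14 with the combination, from -0.28 to 0.20 with ipatasertib and from -0.36 to 0.12 with tazemetostat, so changes within these bounds are not excluded. Without tazemetostat A and combination B, BOK was called lower with tazemetostat against DMSO, at -0.23 (adjusted p = 0.00331). For the combination against tazemetostat its change was 0.02 (95% interval -0.21 to 0.26), but without tazemetostat A and combination B it was 0.27 (adjusted p = 0.00156), called higher, and with the GC trend it was -0.07. BOK overlaps an antisense gene over 7.57% of its exon bases, and that gene had 1 to 14 counts per library.

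**Figure D2:**
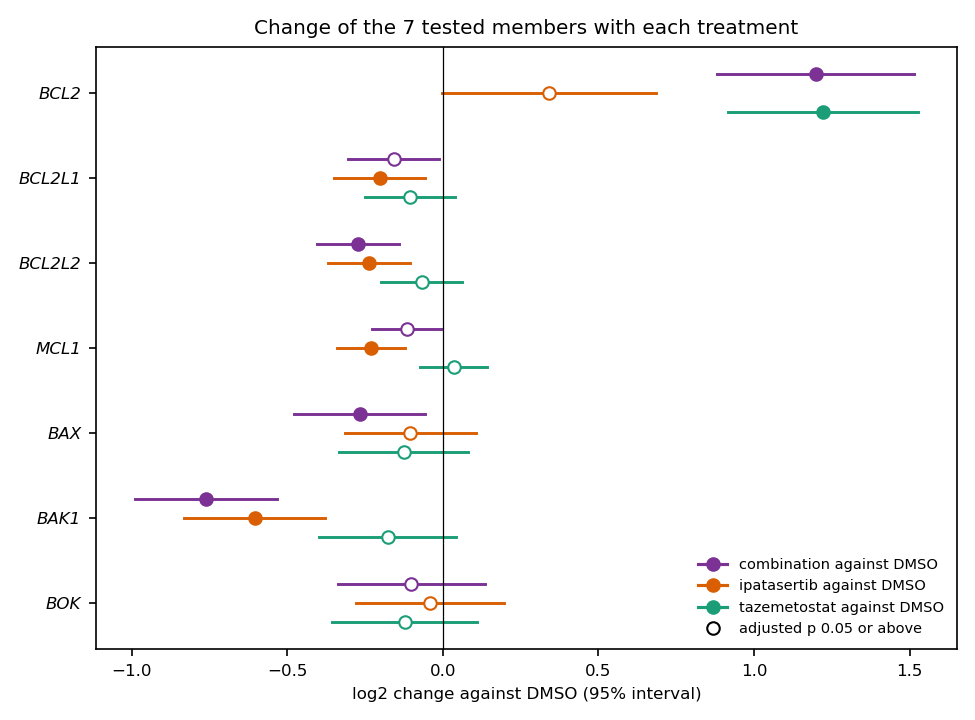
Change of the 7 tested members on the log2 scale against DMSO, with 95% intervals; purple is the combination, orange ipatasertib and green tazemetostat, and filled points have an adjusted p under 0.05. BCL2 stood at 1.20 and 1.22 with the combination and tazemetostat, BAK1 at -0.76 and -0.61 with the combination and ipatasertib, and the other members between -0.27 and 0.03.

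The counts of called members were set beside those of all genes tested. With the combination against DMSO, 1 of 7 members was called higher and 3 lower, in a background of 36.5% of genes higher and 34.5% lower. With ipatasertib against DMSO, 0 were higher and 4 lower, against 25.4% higher and 28.7% lower. With tazemetostat against DMSO, 1 was higher and 0 lower, against 25.1% higher and 20.9% lower. Between the combination and ipatasertib, 1 was higher and 0 lower, with 21.8% of genes higher and 17.3% lower. Between the combination and tazemetostat, 0 were higher and 3 lower, with 29.8% of genes higher and 30.8% lower. The median log2 change of the 7 members was -0.16 with the combination, -0.20 with ipatasertib and -0.11 with tazemetostat, and over all genes tested it was 0.02, -0.01 and 0.02 in the same comparisons. These 3 comparisons share the DMSO libraries.

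Whether the combination departed from the sum of both single effects was tested as an interaction, the change with the combination minus the changes with each inhibitor, on the log2 scale. No member was called higher or lower by edgeR, against 1.87% of genes higher and 1.75% lower, and DESeq2 called 0 as well. At an unadjusted p under 0.05 there were also 0 of 7. The widest departure was BCL2 at -0.36 (95% interval -0.81 to 0.08, adjusted p = 0.380), and BAK1 gave 0.02 (95% interval -0.30 to 0.34). When tazemetostat A and combination B were left out, 4 members were called higher, where 15.7% of all genes were: BCL2L1 at 0.29 (adjusted p = 0.00130), BAX at 0.20 (adjusted p = 0.0421), BAK1 at 0.27 (adjusted p = 0.0190) and BOK at 0.32 (adjusted p = 0.0107). This fit held 2 libraries each of tazemetostat and the combination, without those that stood apart, so its p-values are likely too small. With the GC trend in all 12 libraries, 0 of the members were called, where 14.3% of all genes were, and these 4 stood at 0.08, -0.12, -0.06 and -0.04. In the same way, tazemetostat against DMSO gave 5 called members of 7 without the 2 libraries, where 31.4% of all genes were called higher and 26.9% lower. These were BCL2 at 1.28, BCL2L1 at -0.18, BAX at -0.22, BAK1 at -0.28 and BOK at -0.23. With the GC trend 1 was called, BCL2 at 1.14, where 56.6% of all genes were. The 4 members called in both comparisons after leaving out the 2 libraries, beside BCL2 with tazemetostat, are those with the highest GC content, from 56.9% in BCL2L1 to 66.0% in BOK. The part of GC content in these calls was not tested.

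**Figure D3:**
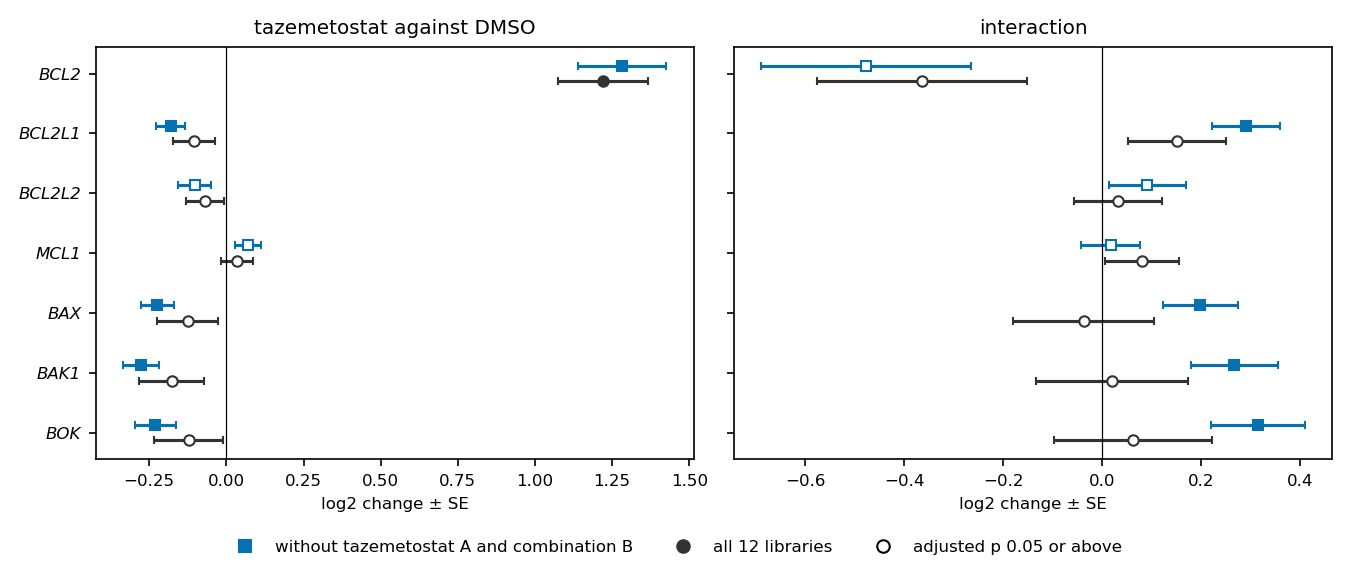
Log2 change ± SE of the 7 tested members for tazemetostat against DMSO (left) and for the interaction (right), without tazemetostat A and combination B (blue squares) and with all 12 libraries (black circles); filled symbols have an adjusted p under 0.05. BCL2L1, BAX, BAK1 and BOK are filled in both panels only without the 2 libraries, and BCL2 is filled for tazemetostat in both fits.

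Summed per kilobase, the guardians came to 103 ± 1.17 CPM per kb with the combination, 97.8 ± 1.67 with ipatasertib, 113 ± 1.06 with tazemetostat and 114 ± 0.625 with DMSO (SD, n = 3). The 3 pore-forming members came to 67.4 ± 13.1, 74.5 ± 1.50, 78.4 ± 9.19 and 86.2 ± 4.27 CPM per kb in the same groups. Guardian sums of all libraries with ipatasertib lay below those of all libraries without it, while the pore-forming sums of combination and tazemetostat spread widely around the 2 libraries that stand apart. MCL1 made up 58.8% ± 2.39 of the guardian sum with the combination, 57.4% ± 0.713 with ipatasertib, 59.7% ± 2.79 with tazemetostat and 57.7% ± 0.756 with DMSO, and BCL2 made up 0.464% ± 0.0482, 0.269% ± 0.0138, 0.431% ± 0.0374 and 0.180% ± 0.0453. No library had more than 0.504% of its guardian sum from BCL2. The ratio of MCL1 to BAK1 was 4.57 ± 1.17 with the combination, 3.65 ± 0.118 with ipatasertib, 3.30 ± 0.498 with tazemetostat and 2.83 ± 0.202 with DMSO. Every combination and ipatasertib library exceeded every DMSO library, and so did tazemetostat B and C, at 3.49 and 3.674. Of the 2 libraries that stand apart, tazemetostat A was at 2.735 and combination B was highest, at 5.896. The part of GC content in this ratio was not tested. The ratio of BCL2L1 to BAX was 0.753 ± 0.0879 with the combination, 0.642 ± 0.0119 with ipatasertib, 0.699 ± 0.0273 with tazemetostat and 0.688 ± 0.0130 with DMSO. These ratios describe RNA and no test was made of them.

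**Figure D4:**
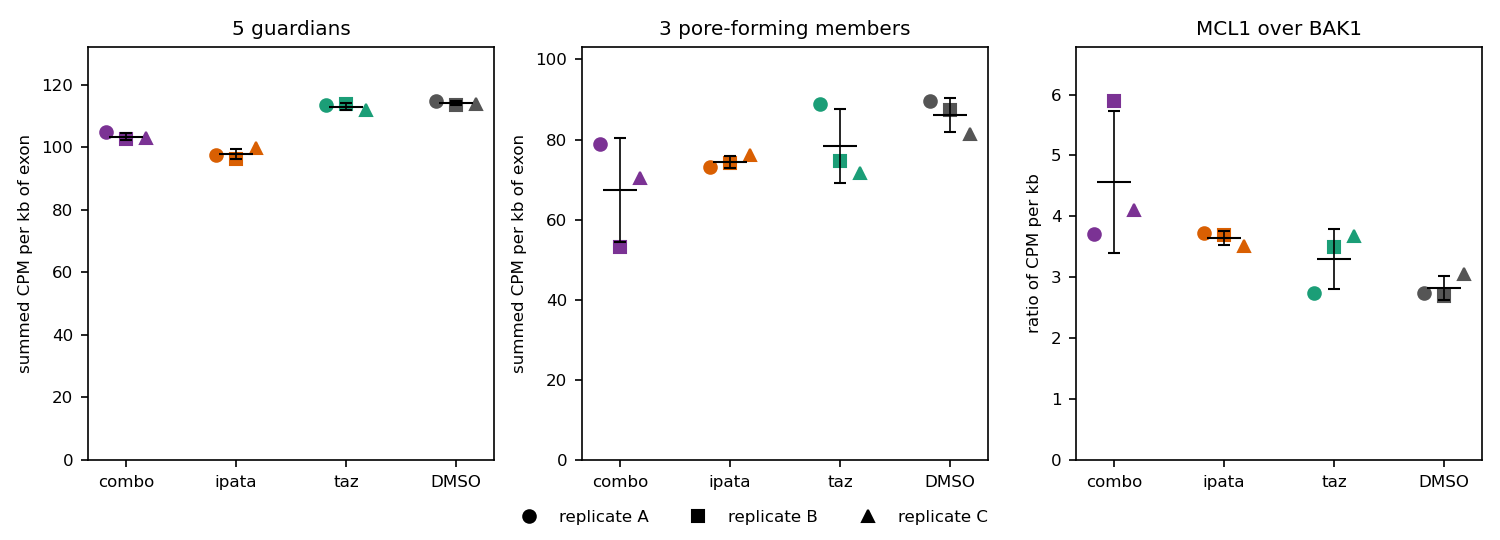
Summed CPM per kb of exon of the 5 guardians (left) and the 3 pore-forming members (middle), and the ratio of MCL1 to BAK1 (right), in every library of combination (combo), ipatasertib (ipata), tazemetostat (taz) and DMSO; the long bar is the mean and the whiskers the SD (n = 3). Guardian sums averaged 103 with the combination and 114 with DMSO, and combination B had the lowest pore-forming sum, 53.2.

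The pathway around these genes was described with 41 listed genes outside the 8 members, of which 40 were tested. With the combination against DMSO 11 were called higher and 20 lower, where 36.5% and 34.5% of all genes were. With ipatasertib the counts were 6 and 19, against 25.4% and 28.7% of all genes, and with tazemetostat 7 and 6, against 25.1% and 20.9%. Without tazemetostat A and combination B the counts with tazemetostat were 11 higher and 9 lower, where 31.4% and 26.9% of all genes were called, and with the GC trend 8 and 13, where 27.2% and 29.4% were. As 71.0% of all genes were called with the combination, the counts of the lists that follow are descriptions, and nothing particular to a list is read from them.

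Of the 8 BH3-only genes, whose proteins bind guardians and trigger BAX and BAK1, 4 rose with the combination and 2 fell. HRK, a BH3-only gene best known from neurons, had 102 to 149 counts per library with the combination and 26 to 39 with DMSO and rose by 2.29 (SE 0.22, adjusted p = 1.12e-08). It rose by 0.92 with ipatasertib and by 0.90 with tazemetostat, and with tazemetostat alone no other BH3-only gene was called across all 12 libraries. Without tazemetostat A and combination B, 2 BH3-only genes were called higher and 2 lower with tazemetostat, and with the GC trend 2 and 1. BMF, whose protein is held at the cytoskeleton in attached cells, averaged 25.8 ± 1.01 CPM with the combination, 16.6 ± 0.797 with ipatasertib, 6.26 ± 0.334 with tazemetostat and 5.49 ± 0.484 with DMSO. Its change against DMSO was 2.23 with the combination (SE 0.09, adjusted p = 3e-14) and 1.59 with ipatasertib (adjusted p = 3.5e-11). BBC3, which encodes PUMA, rose by 1.38 with the combination and by 1.17 with ipatasertib. BCL2L11, which encodes BIM, rose by 0.34 with the combination and by 0.41 with ipatasertib. PMAIP1, which encodes the MCL1 ligand NOXA, fell by 0.23 with the combination and by 0.41 with ipatasertib, and BID fell by 0.17 with the combination.

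Among 5 other BCL2-family genes, 4 were tested, and with the combination 3 rose and 1 fell. BCL2L14 had 14 to 23 counts per library with the combination and 2 to 4 with DMSO, a fitted change of 2.99 (SE 0.51, adjusted p = 3.27e-05), and BCL2L10 had 15 to 28 and 5 to 7 counts, a change of 2.02 (SE 0.39, adjusted p = 0.000114). Both remained under 1 CPM on average in all groups. With ipatasertib BCL2L14 had 2 to 11 counts per library and BCL2L10 3 to 7, and with tazemetostat 3 to 10 and 8 to 20. At such counts, passing the filter depended on the combination group, where both were highest. The p-values of these 2 genes are therefore descriptions and no separate support for a rise. BCL2L13 rose by 0.18 and BCL2L12 fell by 0.75.

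Downstream of the pore, 1 of 9 genes rose with the combination and 5 fell. APAF1, the scaffold of the apoptosome, averaged 24.97 ± 0.512 CPM with the combination, 37.0 ± 0.753 with ipatasertib, 32.2 ± 2.17 with tazemetostat and 47.2 ± 2.61 with DMSO. It fell by 0.92 with the combination (SE 0.07, adjusted p = 3.61e-10), by 0.35 with ipatasertib and by 0.55 with tazemetostat. CASP9, the caspase that APAF1 activates, rose by 0.63 with the combination and by 0.28 with ipatasertib. AIFM1, a mitochondrial flavoprotein released on permeabilisation, fell by 0.56 with the combination, and cytochrome c (CYCS), ENDOG and HTRA2 fell by 0.47, 0.53 and 0.23. CYCS moved in opposite directions with the single inhibitors, at -0.59 with ipatasertib and 0.42 with tazemetostat, both called.

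Of the 5 inhibitors of apoptosis, 1 rose and 2 fell with the combination. BIRC5, which encodes survivin and is highest in dividing cells, fell by 0.83 with the combination (SE 0.05, adjusted p = 5.31e-11) and by 0.52 with ipatasertib. BIRC6 fell by 0.33 with the combination and XIAP, a direct caspase inhibitor, rose by 0.16. Among the 8 mitochondrial partners, 1 rose with the combination and 6 fell. The mitofusin genes MFN2 and MFN1 fell by 0.57 and 0.50, and VDAC2, whose channel protein binds BAK1 and BAX, fell by 0.30. MFF rose by 0.21. Of the 6 genes for regulators of MCL1 protein, BTRC, a ubiquitin ligase subunit, rose by 0.60 with the combination (SE 0.08, adjusted p = 7.25e-07), by 0.33 with ipatasertib and by 0.24 with tazemetostat. The ligase genes HUWE1 and FBXW7 fell by 0.37 and 0.35 with the combination, and the deubiquitinase genes USP9X and USP13 by 0.26 and 0.51.

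Across the 12 libraries, members were described by the Pearson correlation of log2 CPM. These libraries share their groups and the GC trends of the 2 libraries that stand apart, so correlations are descriptions only. BCL2L2 and BAK1 were most alike among the members, with r = 0.957, followed by BAX and BOK with r = 0.883. BCL2 was negatively correlated with each of the other tested members except MCL1, with r = 0.168. Outside the 8 genes, the patterns closest to BCL2 were those of GCH1 (r = 0.979) and MKX (r = 0.976), and those closest to BAK1 were UNC13D (r = 0.992) and GTF3C2 (r = 0.986). For MCL1 they were FRRS1 (r = 0.980) and NFE2L3 (r = 0.975), for BAX C9orf69 (r = 0.987) and TSPAN17 (r = 0.976), and for BCL2L2 GPRIN1 and SNHG10 (both r = 0.968). BCL2L1 was closest to LIMK1 (r = 0.953) and ZNHIT2 (r = 0.942), and BOK to PITPNM1 (r = 0.944) and CHMP1A (r = 0.928).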

How the data were processed

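RNA-seq counts of 12 SUM149PT libraries were used as the authors deposited them, as whole-number read counts per gene symbol. STAR, SAMtools, HTSeq, DESeq2 and the build hg19 are named per the submitters' processing notes. For their versions, the annotation and the strand setting, the sources used here give nothing. The 5 lines that name no gene, holding 29.8% to 38.6% of reads, entered neither library sizes nor tests. The table of normalized values for the whole series was not used.

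Groups were taken from the sample labels. Counts were tested with R 4.3.3 and edgeR 4.0.16 (filterByExpr, TMM, quasi-likelihood F-test, 4 groups in 1 fit, Benjamini-Hochberg over 14874 genes), and calls needed an adjusted p under 0.05. CPM is scaled by TMM, and log2 CPM for correlations has a prior count of 2. The procedure was tested on simulated data. Alternatives were DESeq2 1.42.0, other scalings, no filter, only the groups compared, a replicate block and left-out libraries. A GC trend for each library (lowess, span 0.3, on the longest coding transcript in GENCODE v29, for the 84.2% of tested genes with a value) was added after seeing the data.

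The 8 members and the pathway lists were chosen with earlier results of these data known. Pathway genes named are the 12 with the largest called changes in the combination against DMSO, and those needed to account for counts of 5 or fewer or for context, the latter chosen after their values were seen. For each tested member the 2 genes with the highest correlation are named. Of the leukocyte markers, 1 is not reported here and was left out of their sum.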

Additional observations from a re-analysis of the deposited data

Results flagged for a closer look

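Of the 40 tested pathway genes outside the members, 2 departed from the sum of the single-inhibitor effects, by a test of the difference itself, where 3.62% of all genes did. Without tazemetostat A and combination B the counts were 6 higher and 9 lower, where 32% of all genes were called, and with the GC trend 3 and 5, where 14.3% were. BIRC3, an inhibitor of apoptosis gene, averaged 14.0 ± 0.966 CPM with the combination, 10.1 ± 0.512 with ipatasertib, 11.2 ± 1.16 with tazemetostat and 14.3 ± 0.622 with DMSO. Each inhibitor alone lowered BIRC3 while the combination stood near DMSO, and the interaction was 0.83 (SE 0.13, edgeR adjusted p = 0.000841). This call held under each of 19 alternatives, with values from 0.70 to 1.03 and adjusted p from 3.6e-07 to 0.00635. BMF, a BH3-only gene, gave 0.45 (SE 0.12, edgeR adjusted p = 0.0470), the combination being higher than both single effects add up to. The call of BMF was lost under 12 of 19 alternatives, with adjusted p from 0.0018 to 0.151, and without tazemetostat A and combination B it was 0.52 (adjusted p = 0.0018).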

How the results depend on the processing

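Under all 20 alternatives BCL2 kept its rise against DMSO, with tazemetostat and with the combination, and its rise with the combination against ipatasertib. BAK1 likewise kept its fall against DMSO, with ipatasertib and with the combination, and its fall with the combination against tazemetostat. The other called changes were small, and the calls of BCL2L1, BCL2L2, MCL1 and BAX depended on scaling or on single libraries. Scaling by total counts shifted the median gene by 0.12 (ipatasertib) and 0.14 (combination) against DMSO relative to TMM, where the called changes of BCL2L1, BCL2L2, MCL1 and BAX against DMSO were -0.20 to -0.27. With it 2 members were called with the combination against DMSO (BCL2 higher, BAK1 lower), 2 with ipatasertib (BCL2 higher, newly called, and BAK1 lower), 2 for the combination against ipatasertib (MCL1 newly called higher beside BCL2) and 1 against tazemetostat (BAK1). Without the filter on low counts, 2 members were called for the combination against ipatasertib, and with only the groups compared in the fit, 1 was called against tazemetostat. Without tazemetostat A and combination B, 5 members were called for tazemetostat against DMSO and 4 for the interaction, where 58.3% and 32% of all genes were. With the GC trend, 2 were called for the combination against ipatasertib, BAX at -0.14 being added, where 54.3% of all genes were called. This fit tested the 12528 genes with a GC value, and it also takes out a GC trend that a whole group shares. Leaving out 1 library gave 3 to 6 called members for the combination against DMSO, 1 to 3 for tazemetostat against DMSO (3 without tazemetostat A, 2 without combination B), 1 to 3 for the combination against ipatasertib (3 without combination A) and 1 to 3 against tazemetostat (1 without combination C or tazemetostat B). The count of all genes with an interaction was 539, but 928 with DESeq2, 905 without the filter, 1796 with the GC trend, 4756 without both libraries and 243 to 2482 when 1 library was left out, with the highest count without combination B. The cause of these differences was not tested.

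Sign changes were seen only in changes that were not called in the fit to all 12 libraries. With total counts, the interaction was -0.029 for BAK1 and -0.018 for BCL2L2, ipatasertib against DMSO gave 0.011 for BAX and 0.075 for BOK, tazemetostat against DMSO 0.0024 for BCL2L2, the combination against DMSO 0.035 for BOK and 0.019 for MCL1, and the combination against tazemetostat 0.042 for BCL2 and 0.013 for BCL2L1. With the GC trend, the interaction was -0.058 for BAK1, -0.012 for BCL2L2 and -0.042 for BOK, tazemetostat against DMSO gave -0.047 for MCL1, and the combination against tazemetostat 6e-04 for BCL2 and -0.073 for BOK. Without the filter, the interaction was -0.017 for BAK1 and -0.0047 for BCL2L2. Leaving out both tazemetostat A and combination B gave BOK 0.040 for the combination against DMSO and 0.085 against ipatasertib, BAX 0.093 and BCL2L1 0.087 against tazemetostat, and BAX 0.20 for the interaction. When 1 library was left out, BOK ranged from -0.090 to 0.041 for ipatasertib against DMSO, MCL1 from -0.019 to 0.071 for tazemetostat against DMSO, and BOK from -0.22 to 0.043 for the combination against DMSO. Against ipatasertib the combination gave -0.010 to 0.11 for BCL2L1 and -0.20 to 0.085 for BOK, and against tazemetostat -0.089 to 0.077 for BCL2, -0.077 to 0.024 for BCL2L1 and -0.076 to 0.17 for BOK. The interaction ranged from -0.0015 to 0.066 for BCL2L2, from -0.15 to 0.10 for BAX, from -0.096 to 0.17 for BAK1 and from -0.060 to 0.21 for BOK.

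Replicate letters are shared between groups, and the 18 same-letter pairs correlated between -0.0665 and 0.302 after removing group means. The 2 pairs over 0.1 were tazemetostat A with combination A and tazemetostat B with combination B. With 3 libraries per group and 2 that stand apart, these correlations cannot decide whether same-letter libraries were handled together. The labels do not say so either. A replicate block gave 14 member calls over the 6 comparisons, against 13 without it, adding BCL2L1 for the combination against DMSO. Depth limited BCL2A1, with at most 7 counts per library.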
